A study of Homo sapiens with 12 samples.

Results

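LCN2 encodes lipocalin 2, a secreted protein also called neutrophil gelatinase-associated lipocalin. It was followed here as a single gene, 1 of the 34687 gene names on the array, in the 12 groups that 2 cell lines, 3 treatments and 2 times make. LCN2 was selected on its measured values in these same data, so its levels, fold changes and ranks are given as a description, with no test.

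Illumina HumanHT-12 expression BeadChips were used to measure RNA in the human lines HCT116, from a colon cancer, and PANC1, from a pancreatic adenocarcinoma. Cells of each line were grown for 12 or 96 h in 0.05% DMSO (the solvent, used as the control), in 10 uM ICG-001, a small molecule that blocks the binding of the coactivator CBP to β-catenin, or in 10 uM C646, an inhibitor of the histone acetyltransferase activity of CBP and p300. A group is represented by a single column, which the authors had averaged over 2 arrays, or over 3 arrays for PANC1 cells in ICG-001 for 12 h. With 1 column per group there was no spread between replicates, so every difference is a size measured between 2 columns.

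The LCN2 protein binds siderophores, the small iron carriers that bacteria release, and so withholds iron from them. It is stored in granules of neutrophils and is also made by epithelial cells of the gut and airway during inflammation, where signals such as interleukin 17 and interleukin 1 act through NF-κB and C/EBP factors on its promoter. Outside the cell it can be taken up through the receptors SLC22A17 and megalin (the product of LRP2), and it can bind the gelatinase MMP9.

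The stretch of promoter directly upstream of LCN2 is shown because the factors described further on are known to act there. It is the 250 bases before the RefSeq start of the gene on the plus strand of GRCh38.p14, chr9:128149203-128149452, printed 5′ to 3′ with the motif matches in capitals.
LCN2 promoter: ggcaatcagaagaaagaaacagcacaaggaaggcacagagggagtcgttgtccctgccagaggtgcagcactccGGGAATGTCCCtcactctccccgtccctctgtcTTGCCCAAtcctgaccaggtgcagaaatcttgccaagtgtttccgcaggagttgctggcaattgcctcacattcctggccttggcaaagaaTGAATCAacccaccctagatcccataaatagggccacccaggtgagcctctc
The first capitals hold 2 overlapping matches to the NF-κB pattern (GGG and CC with 5 bases of any kind between), at -176 to -167 on the plus strand and at -175 to -166 on the minus strand, counted from the start of the gene. That pattern occurs in 53.7% of 27305 RefSeq promoter windows of the same kind, so a match is common. The second capitals hold 1 match to the C/EBP pattern TTNNGNAA, on the minus strand at -143 to -136, a pattern found in 33.6% of the windows. The last capitals hold 1 match to the AP-1 pattern TGANTCA at -52 to -46, found in 6.6% of the windows. All patterns were searched on both strands, and the letters TATAA (19.6% of windows) and the TCF/LEF letters CTTTGA (11.4% of windows) were not present in these 250 bases. A match is a run of letters and not a measured binding site.

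Signals are linear brightness values without background subtraction, so a gene that gives no specific signal still reads about as bright as most genes do. A detection limit was set for each column from the spread of the log2 signals below their peak, placed so that about 1% of a normal distribution of background would exceed it, which came to a signal of 151.2 to 152.1 in HCT116 columns and 143.8 to 145.1 in PANC1 columns. Between 13547 and 13893 genes lay above the limit in a column, and signals of the different cell lines, which appear to have been normalized apart, are not set against each other here. The epithelial markers EPCAM, CDH1, KRT8, KRT18 and KRT19 lay above the limit in both lines (5 of 5), while of 5 intestinal markers HCT116 cells had 1, CDX2, and PANC1 cells had 2. Of 4 pancreatic ductal markers PANC1 cells had 2 above the limit and HCT116 cells had 4, and of 4 mesenchymal markers PANC1 cells had 3.

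In HCT116 cells, LCN2 was at or barely above background without drug and stood far above background only with ICG-001 among the treatments measured. Its signal was 151.1 in DMSO at 12 h, just under the limit of 151.4, and 154.3 in DMSO at 96 h, just over the limit of 151.2. With ICG-001 its signal was 578.5 at 12 h and 4802 at 96 h. With C646 it was 145.4 at 12 h, under the limit, and 183.9 at 96 h. The order of the 6 HCT116 columns was therefore ICG-001 at 96 h, ICG-001 at 12 h, C646 at 96 h, and then both DMSO columns and C646 at 12 h. The last 3 stood within 10 signal units of each other, and no replicate values were at hand to order them. The highest signal, with ICG-001 at 96 h, was 31.6 times the limit of its column. In RNA from whole cultures, more cells that make LCN2 and more LCN2 RNA per cell cannot be told apart.

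In PANC1 cells, LCN2 stayed near background in every column. Its signal was 142.4 and 134.8 in DMSO at 12 and 96 h, 135.7 and 149.2 with ICG-001, and with C646 127.4 and 135.0. Only the ICG-001 column at 96 h lay above its limit, of 144.8, and by 1.03-fold. The highest and lowest PANC1 columns differed 1.17-fold, so no order of treatments can be read from them.

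**Figure D1:**
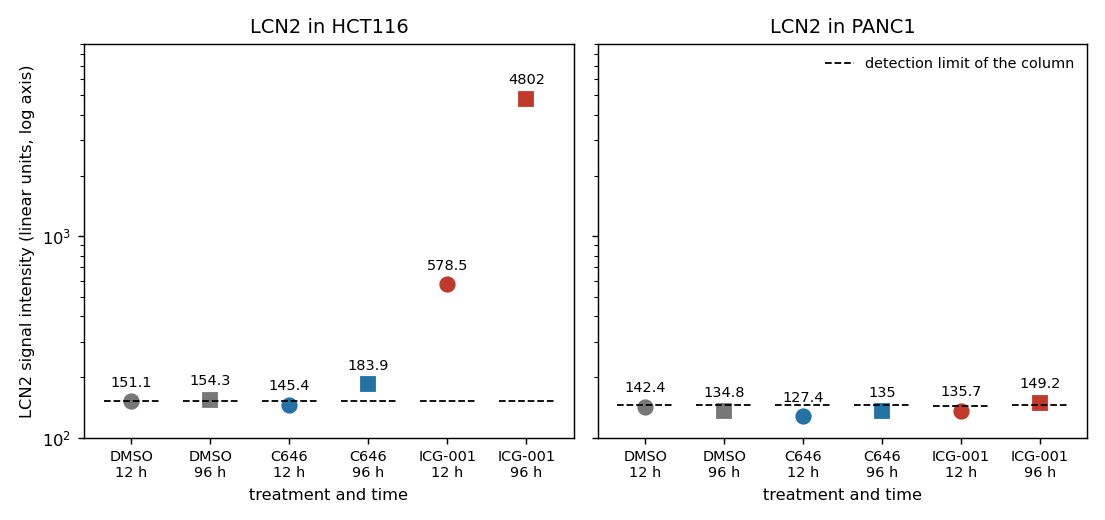
LCN2 signal intensity (linear units on a log axis) in each of the 12 columns, with HCT116 cells on the left and PANC1 cells on the right. Circles are 12 h, squares are 96 h, and dashed lines are each column's detection limit; only the HCT116 ICG-001 points, at 578.5 and 4802, stand far above it.

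After 12 h of ICG-001, LCN2 in HCT116 cells was at least 3.82-fold higher than in DMSO, computed against the detection limit because the DMSO signal lay under it. The ratio of the measured signals was 1.94 on the log2 scale, and it ranked 17th among the 14583 genes above the limit in either column. Of those genes, 5.63% were at least 1.5-fold higher and 4.85% at least 1.5-fold lower. LCN2 was thus among the most increased genes at 12 h but not the first.

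The 3 genes next above LCN2 in that order were MAP1LC3B, which codes for an autophagosome protein, VGF, a secreted precursor of neuropeptides, and IL20RB, a receptor subunit for cytokines of the interleukin 20 family, at log2 ratios of 2.00, 1.98 and 1.95. The 3 next below were ARRDC4, an arrestin-like adaptor, SLC3A2, the heavy chain of amino acid transporters, and CPA4, a carboxypeptidase, at 1.92, 1.88 and 1.86. These steps of a few hundredths are smaller than the SD of 0.077 that the same ratio had among 18681 genes at or under the limit in all HCT116 columns. The order of LCN2 and these neighbours at 12 h therefore cannot be read.

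After 96 h of ICG-001, LCN2 was the most increased gene in HCT116 cells. Its signal was 31.1-fold that in DMSO, a log2 ratio of 4.96, ranking 1st of 14692 genes, of which 5.98% were at least 1.5-fold higher and 5.95% at least 1.5-fold lower. The next gene was GCNT3, a glycosyltransferase that builds branched mucin glycans, with an 8.12-fold higher signal (log2 ratio 3.02). FGF19, a hormone of the ileum that restrains bile acid synthesis, followed at 7.21-fold, and TRIB3, a pseudokinase induced by cell stress, at 6.63-fold. The LCN2 signal in DMSO lay just over its limit, so its fold is measured against a value that is almost all background.

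**Figure D2:**
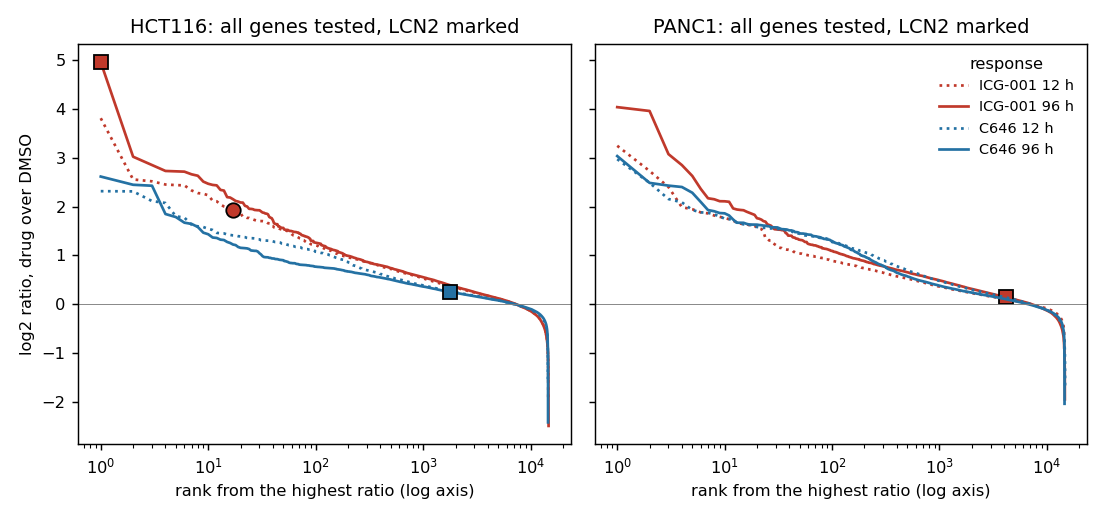
Log2 ratio of drug over DMSO for all genes tested, ordered from the highest (rank on a log axis), in HCT116 cells (left) and PANC1 cells (right), with LCN2 marked where it was tested (circle 12 h, square 96 h). In HCT116 cells LCN2 is the first point of the ICG-001 curve at 96 h, at 4.96, and the 17th at 12 h, at 1.94.

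The increase was built up mainly between the time points. Within ICG-001, the LCN2 signal was 8.30-fold higher at 96 h than at 12 h (log2 ratio 3.05), the highest of 14572 genes, of which 4.78% were at least 1.5-fold higher, and the next was LOC643031 at 2.15. Over the same time LCN2 changed by 0.03 on the log2 scale in DMSO. In signal units the excess over DMSO was 427.4 at 12 h and 4648 at 96 h, so 9.19% of the later excess was present at 12 h. Per the study's methods, cultures for the later time were started at a lower density, so length of treatment and culture density cannot be told apart between times. The 96 h log2 ratio exceeded the 12 h log2 ratio by 3.02, again the highest of 16006 genes, with GCNT3 next at 2.12.

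Among the 16 genes ahead of LCN2 at 12 h, 9 had a smaller ratio at 96 h than at 12 h. UPP1, uridine phosphorylase, led at 12 h with a 14.0-fold higher signal and was at 6.59-fold at 96 h. PPP1R15A and DDIT3, both induced by the integrated stress response, went from 5.88-fold to 1.99-fold and from 5.73-fold to 3.73-fold, and VGF from 3.96-fold to a log2 ratio of -0.10. PLAU, the urokinase protease, and IL20RB had larger ratios at 96 h, at 6.20-fold and 5.07-fold, though both lay far under LCN2. Of the 16 genes, 15 were still at least 1.5-fold higher at 96 h.

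**Figure D3:**
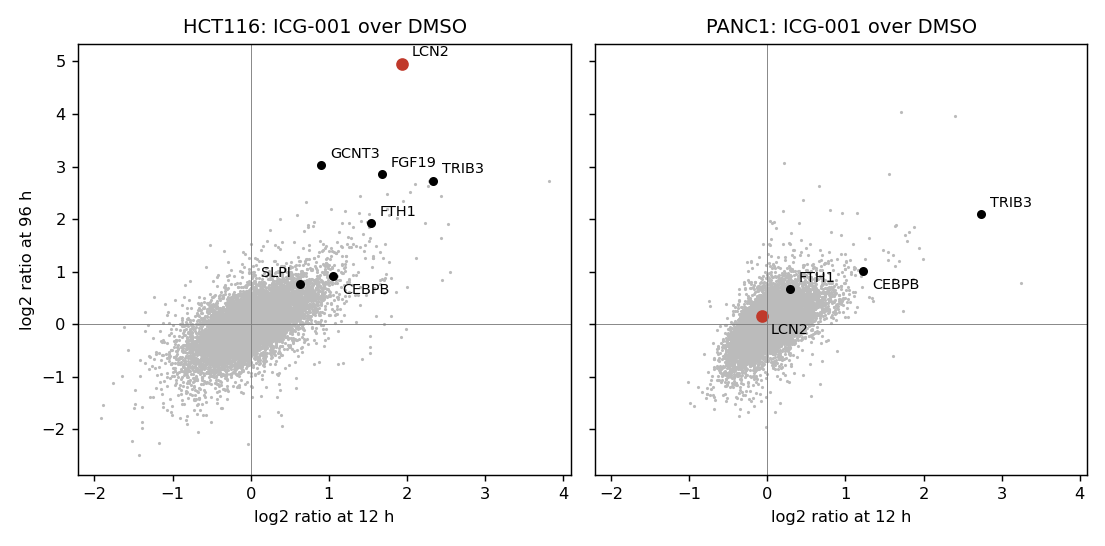
Log2 ratio of ICG-001 over DMSO at 12 h (x axis) against 96 h (y axis) for each gene above the limit in any of the 4 columns, in HCT116 cells (left) and PANC1 cells (right), with LCN2 in red. LCN2 lies alone at the top in HCT116 cells, at 1.94 and 4.96, and close to the origin in PANC1 cells, at -0.07 and 0.15, where CEBPB and TRIB3 are high.

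C646 gave no comparable increase. At 12 h the LCN2 signals with C646 and DMSO were both under the limit, so no fold is given. At 96 h LCN2 was 1.19-fold higher with C646 than with DMSO, a log2 ratio of 0.25, which ranked 1762nd of 14526 genes. Of all genes tested with C646, 3.05% were at least 1.5-fold higher and 1.8% lower at 12 h, against 2.2% and 1.42% at 96 h. That ratio was larger than the SD of 0.074 among genes at or under the limit, but it fell short of 1.5-fold. That call turns on the background treatment, since the ratio was 0.57 after a normexp background correction and, with the column median subtracted, 1.47, which is past 1.5-fold.

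The drugs were compared directly at equal dose and time. LCN2 was at least 3.81-fold higher with ICG-001 than with C646 at 12 h, ranking 12th of 14532 genes (4.05% of them at least 1.5-fold higher). At 96 h it was 26.1-fold higher with ICG-001, a log2 difference of 4.71, ranking 1st of 14605 genes (3.79% at least 1.5-fold higher), and FGF19 came next at 2.71. Of the 12 LCN2 ratios between treatments of a line and time, these were 2 of the 4 that reached 1.5-fold, the others being ICG-001 over DMSO in HCT116 cells.

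In PANC1 cells LCN2 showed no such increase with either drug. At 96 h of ICG-001 LCN2 was at least 1.03-fold higher than in DMSO, with a measured log2 ratio of 0.15, and ranked 4128th of 14708 genes. With ICG-001, 2.59% of all genes tested in PANC1 cells were at least 1.5-fold higher and 0.399% lower at 12 h, while 4.53% were higher and 4.19% lower at 96 h. In the other 3 drug columns both signals lay under the limit. The ICG-001 log2 ratio at 96 h was 4.96 in HCT116 cells and 0.15 in PANC1 cells, and this difference, taken from the measured signals, was the highest of 17784 genes, with GCNT3 next. The PANC1 ratio lies between signals under or just over the limit, so no exact size is given for the difference between lines at either time. The difference rests on 1 column per group, and whether it exceeds the spread between cultures was not tested. In the same PANC1 column at 96 h, 3 of 5 epithelial markers (EPCAM, KRT8 and KRT19) were at least 1.5-fold lower than in DMSO. Their summed signal over all 5 was 18830 in DMSO and 8882 with ICG-001, beside 22955 and 22777 in HCT116 cells, and its part in the LCN2 result was not tested.

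The absolute size of the LCN2 fold depends on how background is treated, because its control signal is almost all background. With a normexp background correction the log2 ratio for ICG-001 over DMSO in HCT116 cells was 3.10 at 12 h and 6.36 at 96 h, and with the column median subtracted it was 4.78 and 8.19. The direction and the first place at 96 h did not depend on the normexp correction.

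Few genes for receptors and partners of LCN2 could be tested, and none of those passed 1.5-fold with ICG-001 in HCT116 cells. Of 5 such genes, LRP2, MC4R and BDH2 (an enzyme of the mammalian siderophore) were under the limit in every column. SLC22A17, the cell surface receptor, had HCT116 signals at 12 and 96 h of 190.7 and 243.5 in DMSO, 175.9 and 212.6 with C646, and 156.7 and 183.3 with ICG-001. Its log2 ratios with ICG-001 were -0.28 and -0.41, short of 1.5-fold, in the columns where LCN2 was highest. MMP9, the gelatinase that LCN2 binds, went from 156.3 and 169.2 in DMSO to 150.6 and 142.2 with ICG-001, all close to the limit. For all HCT116 genes tested with ICG-001, the upward share was 5.63% (12 h) and 5.98% (96 h). The downward share was 4.85% (12 h) and 5.95% (96 h). With 2 list genes tested at each time, a count of 0 cannot tell the list from all genes.

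The rest of the lipocalin family was silent or close to it. Of 19 other family genes, 15 were under the limit in all 12 columns. LCN15, LCNL1, PTGDS (a prostaglandin D synthase) and APOM (an apolipoprotein that carries sphingosine-1-phosphate) passed it somewhere. The highest signal any of these reached was 177.5, for PTGDS in PANC1 cells in DMSO at 96 h. With ICG-001 in HCT116 cells 1 was tested at 12 h and 0 at 96 h, and with C646 0 and 1. None of those changed 1.5-fold, nor did the 2 (12 h) and 3 (96 h) tested with ICG-001 in PANC1 cells. So few genes cannot tell the family from all genes, of which at most 5.98% passed 1.5-fold in any 1 direction. For LCN15, LCNL1, PTGDS and APOM, log2 ratios with ICG-001 in HCT116 cells lay between -0.24 and 0.03. All except that of APOM at 12 h were taken between signals under the limit.

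Some transcription factors and signalling genes known to act on LCN2 passed 1.5-fold with ICG-001 in each line. Of 22 such genes, 4 of 20 tested were at least 1.5-fold higher with ICG-001 at 12 h in HCT116 cells and 0 were lower, and at 96 h 2 of 21 were higher and 2 lower. Of all genes tested, 5.63% were higher and 4.85% lower at the earlier time, against 5.98% higher and 5.95% lower at the later one. The median log2 ratio of the list was -0.06 and -0.11 at these times, beside 0.00 for all genes tested. The C/EBP family accounted for most of the higher ones: CEBPB, CEBPD and CEBPG, with KLF5, at 12 h, and CEBPB and CEBPG at 96 h.

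CEBPB, an activator of acute phase and inflammatory genes, had HCT116 signals at 12 h of 2716 in DMSO, 5620 with ICG-001 and 2456 with C646, and at 96 h of 3342, 6336 and 3286 in that order. Its log2 ratios with ICG-001 were 1.05 and 0.92, and with C646 -0.15 and -0.02. CEBPG, a partner of other C/EBP and ATF factors, had ICG-001 log2 ratios of 1.11 and 1.56. Both genes, like LCN2, were higher with ICG-001 than with DMSO in HCT116 cells at both times.

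In PANC1 cells CEBPB and CEBPG were also higher with ICG-001, and LCN2 was near background. The part of these genes in the LCN2 result was not tested in either line. CEBPB went from 1227 and 1873 in DMSO to 2877 and 3759 with ICG-001, log2 ratios of 1.23 and 1.00, and CEBPG had ratios of 1.04 and 1.09. Of the regulator list, 3 of 19 tested were at least 1.5-fold higher at 12 h and 6 of 19 at 96 h, with 0 lower at either time. Among PANC1 genes at large, the upward share was 2.59% (12 h) and 4.53% (96 h). The downward share was 0.399% (12 h) and 4.19% (96 h), so few decreases could be looked for at 12 h. The list median was 0.03 (12 h) and 0.34 (96 h) on the log2 scale, beside -0.007 and -0.008 for all genes tested. The 3 list genes higher at 12 h were CEBPB, CEBPG and NFKBIA. The 6 at 96 h were NFKB1, NFKBIA, NFKBIE, CEBPB, CEBPD and CEBPG, and in HCT116 cells NFKB1, a subunit of NF-κB, had log2 ratios of 0.54 and 0.22.

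STAT3, which carries interleukin 6 and interleukin 22 signals, was lower where LCN2 was highest. Its HCT116 signals at 12 h were 433.6 in DMSO, 300.7 with ICG-001 and 285.9 with C646, and at 96 h 647.0, 358.7 and 441.8, with ICG-001 log2 ratios of -0.53 and -0.85. EHF, an ETS factor of epithelial cells, had ICG-001 ratios of -0.23 and -0.69 and C646 ratios of -1.08 and -0.63. Both genes were also lower with C646, though STAT3 fell short of 1.5-fold at 96 h. The part of these genes in the LCN2 result was not tested. With C646 in HCT116 cells, 1 of 20 regulators tested, NFKBIE, was higher and 3, STAT3, EHF and BCL3, were lower at 12 h. At 96 h 0 of 21 were higher and 1, EHF, was lower. C646 gave upward calls in 3.05% (12 h) and 2.2% (96 h) of all HCT116 genes tested, and downward calls in 1.8% and 1.42%. The list median was -0.14 (12 h) and -0.07 (96 h) on the log2 scale, beside -0.01 and -0.004 for all genes. In PANC1 cells with C646, 0 of 19 regulators were higher at either time, while 3 (12 h) and 2 (96 h) were lower. Genes at large were lower there in 472 of 14770 (12 h) and 203 of 14607 (96 h) cases.

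Of 17 receptors and adaptors of the interleukin 17 and interleukin 22 pathways, 0 of 9 tested changed 1.5-fold with ICG-001 at 12 h in HCT116 cells and 2 of 11 were higher at 96 h. They were IRAK1, a kinase downstream of interleukin 1 and Toll-like receptors, with a log2 ratio of 1.07, and TNFRSF1A, a receptor of tumour necrosis factor, with 0.64. At 12 h the ratios of these 2 genes were 0.19 and 0.26. Among HCT116 genes at large, the upward share with ICG-001 was 5.63% (12 h) and 5.98% (96 h). The downward share was 4.85% (12 h) and 5.95% (96 h). Counts as small as 0 of 9 and 2 of 11 cannot tell this list from genes at large. In PANC1 cells at 96 h IRAK1 had a ratio of 0.71 and TNFRSF1A of -0.55. IL17RD, a receptor-like member of the list, was the 1 gene at least 1.5-fold higher with C646 in HCT116 cells, at 0.99 and 0.73. Of all genes tested with C646, 3.05% were higher at 12 h and 2.2% at 96 h. The part of these genes in the LCN2 result was not tested.

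Genes of iron handling, the process on which the LCN2 protein acts, changed in both directions, as genes at large did. Of 27 genes, 2 of 18 tested were at least 1.5-fold higher and 1 lower with ICG-001 at 12 h in HCT116 cells, and 2 were higher and 2 lower at 96 h. Those at 12 h were FTH1 and HMOX1, the inducible heme oxygenase, at 0.69, and CYBRD1, a ferric reductase, at -0.86. The list median was -0.12 at 12 h and -0.05 at 96 h on the log2 scale, beside -0.003 and -0.002 for all genes tested. Genes at large passed 1.5-fold upward in 5.63% (12 h) and 5.98% (96 h) of cases. Downward the shares were 4.85% (12 h) and 5.95% (96 h). With 18 genes tested, counts this small cannot tell the list from all genes. With C646 0 of 18 changed at either time, where at most 3.05% of all genes tested passed 1.5-fold in any 1 direction. In PANC1 cells with ICG-001, 1 of 17 was higher at 12 h and 3 of 18 were higher and 3 lower at 96 h. Upward calls made up 2.59% (12 h) and 4.53% (96 h) of all PANC1 genes tested. Downward calls made up 0.399% (12 h) and 4.19% (96 h). The iron gene higher at 12 h was HMOX1, at a log2 ratio of 1.02. At 96 h the iron importers TFRC and SLC11A2 were lower, at -1.20 and -0.93, as was HMOX2. FTH1, SLC25A28 and SLC25A37 were higher, and the part of these genes in the LCN2 result was not tested.

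FTH1, the ferritin heavy chain that stores iron, went from 1159 and 1356 in DMSO to 3364 and 5148 with ICG-001, log2 ratios of 1.54 and 1.92, and was at 1588 and 1920 with C646. The FTH1 signal is uncertain because near-identical ferritin copies are listed as separate genes on the array. Of 8 ferritin heavy chain rows above the limit in HCT116 cells, 6 were at least 1.5-fold higher at 12 h and 7 at 96 h, with log2 ratios at 96 h from 0.03 to 1.92. SLC25A28, a mitochondrial iron importer, had an ICG-001 ratio of 0.79 at 96 h. HMOX2, a heme oxygenase, and IREB2, an iron regulatory protein, had -0.76 and -0.68. TFRC, the transferrin receptor, had HCT116 signals of 6786 and 5995 in DMSO and 6154 and 4529 with ICG-001, a difference short of 1.5-fold at both times.

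Most other genes of mucosal defence were not detected. Of 48 such genes (antimicrobial peptides, chemokines, lectins and oxidases), 34 were under the limit in all 12 columns. With ICG-001 in HCT116 cells 2 of 7 tested were at least 1.5-fold higher and 1 lower at 12 h, and 2 of 9 higher and 2 lower at 96 h, beside 5.63% and 4.85%, and 5.98% and 5.95%, of all genes. The median log2 ratio of the genes tested was 0.29 at 12 h and 0.11 at 96 h, beside 0.00 for all genes at both times. With C646 in HCT116 cells 0 of 4 and 0 of 9 changed, where at most 3.05% of all genes passed 1.5-fold in any 1 direction. In PANC1 cells with ICG-001 0 of 6 and 0 of 9 changed, where that share was at most 4.53%. Counts this small cannot tell the list from all genes.

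SLPI, an antiprotease with antimicrobial activity that epithelia secrete, was the one member higher at both times. Its HCT116 signals were 128.6 and 127.9 in DMSO, under the limit, and 199.4 and 216.9 with ICG-001, at least 1.32-fold and at least 1.43-fold higher against the limit, although the ratios of the measured signals, 0.63 and 0.76 on the log2 scale, passed 1.5-fold. ANG and RNASE4, secreted ribonucleases whose genes lie side by side, were lower with ICG-001, at log2 ratios of -0.68 and -1.30 for ANG and -0.56 and -0.91 for RNASE4. CXCL8, the neutrophil chemokine interleukin 8, had ICG-001 signals of 237.2 and 300.7 beside 194.6 and 198.9 in DMSO, a ratio of 0.60 at 96 h. LGALS3, a lectin, was the other higher gene at 12 h, with a ratio of 0.72.

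**Figure D4:**
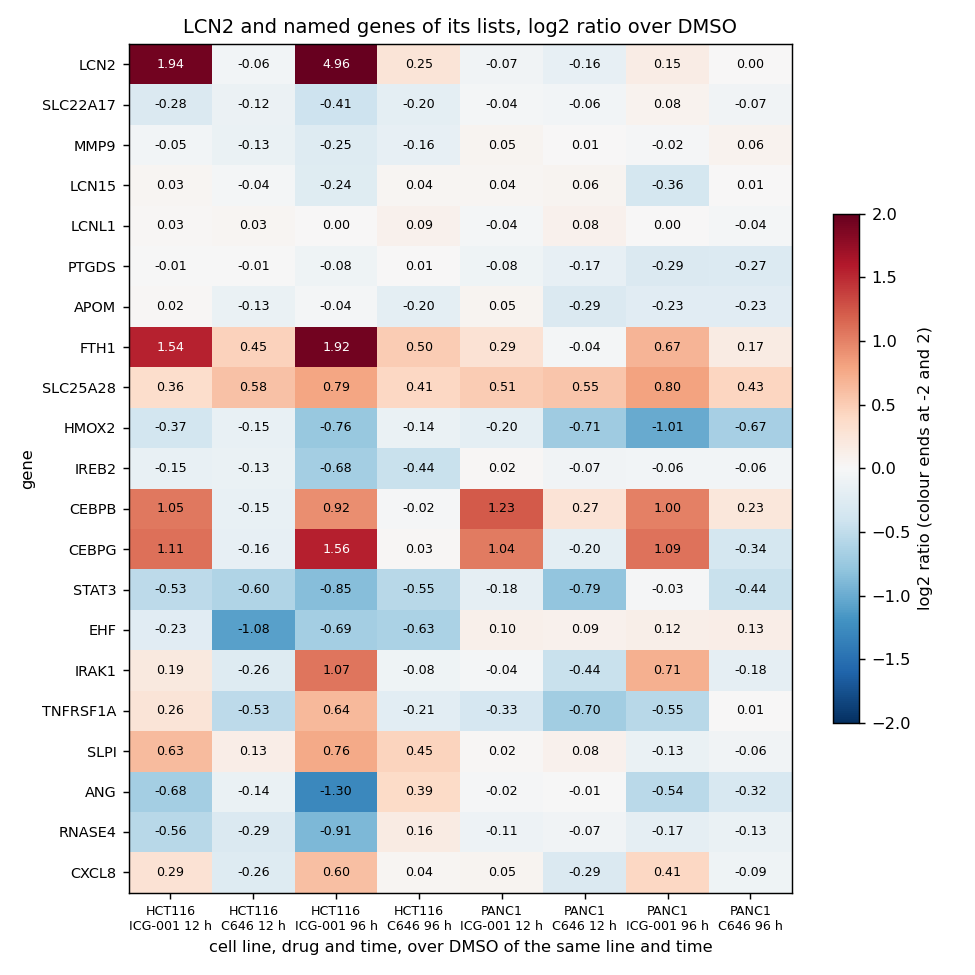
Log2 ratio over DMSO of the same line and time for LCN2 and the genes named from its lists (rows) in the 8 drug columns (columns), with each value printed and the colours saturating at 2 in either direction. LCN2 stands out only in the HCT116 ICG-001 columns, whereas CEBPB and CEBPG are also above 1 or close to it in the PANC1 ICG-001 columns.

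The neutrophil granule genes, with which LCN2 is stored in neutrophils, were not seen to move with it. Of 17 such genes, 2 were above the limit in any HCT116 column, MMP9 and PRTN3, and the highest single signal among them was 182.2. MPO, CTSG, CAMP and CEACAM8 were under the limit in all columns. The summed signal of the list was between 2147 and 2219 over the 6 HCT116 columns.

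KRT7, a keratin of ducts and simple epithelia, was higher with ICG-001 in HCT116 cells, as LCN2 was, but with another time course. With ICG-001 it was lower at 96 h than at 12 h, and with C646 it lay above the limit at both times. Its signals at 12 h were 141.5 in DMSO, under the limit, 388.8 with ICG-001 and 177.7 with C646, and at 96 h 140.02, also under the limit, 336.4 and 200.1, so with ICG-001 it was at least 2.57-fold and at least 2.22-fold higher. Of the 4 pancreatic ductal markers it was the only one at least 1.5-fold higher with ICG-001. Their summed signal at 12 h was 1507 in DMSO, 1425 with ICG-001 and 883.6 with C646, and at 96 h 1986, 2002 and 1447, and the part of this in the LCN2 result was not tested.

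Genes whose pattern over the 6 HCT116 columns was most like that of LCN2 were found by Pearson's r of log2 signals among 1504 genes that passed the limit in any of these columns and varied at least 2-fold. The 5 highest were OR2A9P (an olfactory receptor pseudogene) at 0.994, HOXA9 (a homeobox factor) at 0.992, ATP6AP1L at 0.991, GCNT3 at 0.989 and HINT2 (a mitochondrial hydrolase) at 0.988. All 6 columns share the same normalization, and r of at least 0.9 was reached by 97 genes. Without both ICG-001 columns, over 4 columns, r was 0.86, 0.03, 0.71, 0.99 and 0.25 in the same order. LCN2 was at or near the limit in most of those 4 columns, so these values do not tell the 5 genes apart, and the likeness describes the ICG-001 columns above all.

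Of these 5 genes GCNT3 had the largest ICG-001 ratio at 96 h, after LCN2 itself. Its HCT116 signals at 12 h were 198.9 in DMSO, 370.5 with ICG-001 and 176.4 with C646, and at 96 h 199.7, 1622 and 269.3 in that order. As with LCN2, the ICG-001 column at 96 h was the highest, then its 12 h column, then C646 at 96 h. In PANC1 cells it was under the limit in all columns, with signals between 109.7 and 120.4, where LCN2 passed the limit in the ICG-001 column at 96 h alone. HOXA9 varied far less, from 1287 and 1163 in DMSO to 1584 and 2680 with ICG-001. No such comparison was made in PANC1 cells, where LCN2 varied less than 1.5-fold.

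**Figure D5:**
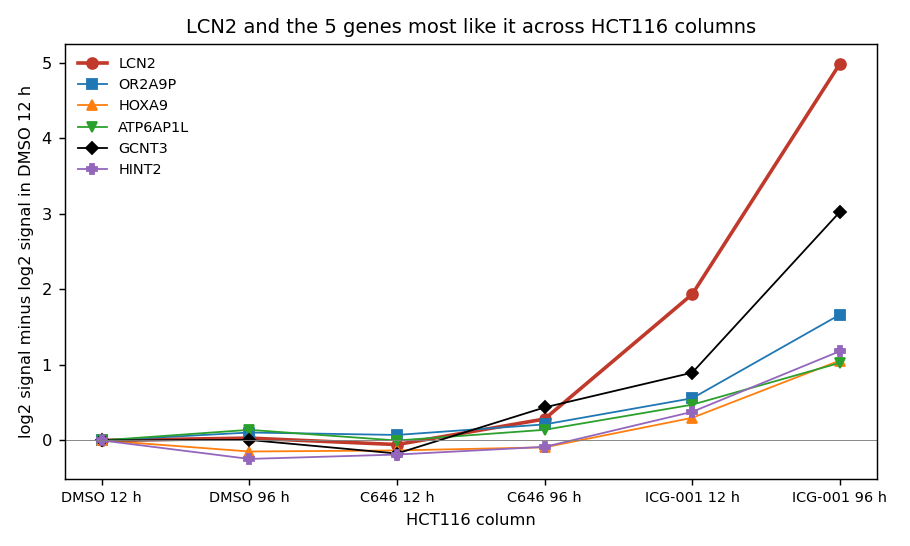
Log2 signal relative to DMSO at 12 h for LCN2 and the 5 genes with the highest Pearson r with it over the 6 HCT116 columns (x axis). All rise in the ICG-001 columns, and LCN2 rises furthest, followed by GCNT3, whose 96 h ratio over DMSO was 3.02.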

How the data were processed

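The authors hybridised RNA to Illumina HumanHT-12 v4 BeadChips. The deposited values are linear signal intensity, 1 value per gene name, exported from GenomeStudio with quantile normalization and no background subtraction, and the authors averaged the 2 or 3 arrays of a group. Values of single arrays were not used here, so no p-value, SD between replicates or test is given. The number of arrays limits the precision. Per the study's methods the arrays were biological replicates.

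Columns were matched to groups by their labels. Sorted log2 values differed on average by 0.0037 to 0.0093 within a line and by 0.063 to 0.066 across lines. A gene was tested in a comparison where it lay above the detection limit in at least 1 of its 2 columns, and called at 1.5-fold. The limit was the peak of the log2 values plus the normal multiple for an upper tail of about 1%, with the SD taken as the root mean square deviation of values below the peak about the peak. The calling and ranking steps were tested on simulated data.

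LCN2, the gene lists and the rules were chosen with earlier results of these data known. Named were list members above the limit (receptors, lipocalins), those changed 1.5-fold with ICG-001 in HCT116 cells at both times, up to 4 per list with the largest change at 96 h, 3 rank neighbours on each side and the 5 genes most alike. HMOX1, CYBRD1, SLC11A2, SLC25A37, BCL3, IL17RD, LGALS3, KLF5, CEBPD, NFKB1, NFKBIA, NFKBIE, TFRC, PRTN3, KRT7 and the genes ahead of LCN2 at 12 h were named after their values were seen where the rule did not name them. All 152 list genes matched, 4 through older symbols. The promoter is from RefSeq (GRCh38.p14).

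Alternatives were other background corrections (limma 3.58.1, R 4.3.3), scalings, limits and fold thresholds. Tables and plots were made in Python 3.11.15 (scipy 1.17.1, matplotlib 3.10.9, pandas 2.3.3, numpy 2.4.6).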

Additional observations from a re-analysis of the deposited data

How the results depend on the processing

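Centring on the median ratio and quantile normalization over all columns moved none of the 18 LCN2 log2 ratios beyond the SD of dim genes, and no filter, a limit at 5 SD and a limit from a one-sided SD (chosen after seeing the data) kept its 5 ranks. Background treatment moved them. After normexp with offset 16, the HCT116 ratios over DMSO were 3.10 (ICG-001 12 h), 6.36 (ICG-001 96 h), -0.17 (C646 12 h) and 0.57 (C646 96 h), those of ICG-001 over C646 were 3.27 and 5.79, and those of 96 h over 12 h were 3.31 (ICG-001) and 0.80 (C646). In PANC1 cells they were -0.21 (ICG-001 12 h), 0.40 (ICG-001 96 h) and -0.51 (C646 12 h) over DMSO, 0.30 and 0.39 for ICG-001 over C646, and -0.24 (DMSO), 0.37 (ICG-001) and 0.27 (C646) for 96 h over 12 h. LCN2 then ranked 7th rather than 17th for ICG-001 over DMSO at 12 h and 2nd rather than 12th for ICG-001 over C646. With the column median subtracted and a floor of 16, the HCT116 ratios over DMSO were 4.78 (ICG-001 12 h), 8.19 (ICG-001 96 h) and 1.47 (C646 96 h), those of ICG-001 over C646 were 4.78 and 6.71, and those of 96 h over 12 h were 3.41 (ICG-001) and 1.47 (C646). The PANC1 values were then 0 for C646 at 12 h and ICG-001 at 96 h over DMSO, for ICG-001 over C646 at both times and for 96 h over 12 h in all treatments, because both signals sat at or near the floor. For LCN2 with ICG-001 in HCT116 cells, both settings remove background that makes up nearly all of the control signal, which enlarges the ratio by construction.

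List genes changed with ICG-001 in HCT116 cells numbered 10 at 12 h and 14 at 96 h at 1.5-fold, 30 and 32 at 1.2-fold, and 3 and 4 at 2-fold. With C646 they numbered 5 and 2, then 18 and 24, then 1 and 0. In PANC1 cells with ICG-001 they numbered 5 and 13, then 15 and 30, then 3 and 4. These are counts out of 152 list genes, many of them under the limit. The share of all genes is given above at 1.5-fold only. The counts therefore show how the calls depend on the threshold, and not whether the lists differ from the rest of the array. No paired analysis was possible because each group had 1 column, and for the same reason no replicate could be left out.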
